A study of Rattus norvegicus with 12 samples.

Results

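Adult semilunar valve was compared with adult aorta across all probe sets of a rat oligonucleotide array. The groups were chosen by sample title alone: 3 arrays titled adult valve and 3 titled adult aorta, 6 of the 12 arrays of the series. The valve samples held both the aortic and the pulmonary semilunar valves, and aorta was taken from the proximal part. Both came from Wistar rats in steady state, labelled male and adult, with no genotype, agent or exact age given, and the remaining 6 arrays are newborn aorta and newborn valve collected within 24 h of birth. Nothing in the labels says that replicate arrays came from separate animals or how many valves were pooled, so p-values measure only the spread between these samples. The 3 arrays titled adult aorta also carry a tissue entry of newborn semilunar valve, and the newborn valve arrays one of adult aorta. Both conflict with the titles and the source names.

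The semilunar valves are thin leaflets that stop blood from falling back into the ventricles. A leaflet is covered by endothelium and filled with interstitial fibroblasts in layers of collagen, proteoglycan and elastin, whereas the wall of the proximal aorta is built of stacked smooth muscle layers and elastic sheets within a sleeve of connective tissue and fat. Valve interstitial cells share several transcription factors and matrix genes with developing tendon and cartilage. In bulk tissue of this kind, fewer cells of a type and less RNA per cell cannot be told apart.

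Among endothelial, tendon and cartilage, and heart muscle genes the calls lay mostly on the side of the adult valve. Among fat genes and enzymes of fatty acid oxidation most members were lower in the valve, and smooth muscle and Hox genes had calls in that direction too. The receptor phosphatase gene Ptprb differed 9.44-fold and the tight junction gene Cldn11, on 1 of its 2 probe sets, 24-fold towards the valve. The smooth muscle actin gene Acta2 differed 20.2-fold and the fatty acid carrier gene Fabp4 51.2-fold towards the aorta (n = 3 arrays in each group). Many further large differences were seen on only one of several probe sets of the same gene.

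Several properties of the arrays moved with the tissue. The 3'/5' signal ratio of a transcript's probe sets, which rises when signal is lost with distance from the 3' end of a transcript, was 10.7 to 14.0 for beta-actin on valve arrays and 1.44 to 2.59 on aorta arrays. For GAPDH it was 2.78 to 5.13 against 0.999 to 1.13, and for the bacterial control RNA dap 19.1 to 21.4 against 1.68 to 2.18. Median signals were 133 to 156 on valve arrays and 183 to 198 on aorta arrays, at a trimmed mean of 500.1 to 500.2. The part of these differences in the results was not tested. Xist, the RNA of the inactive X chromosome, had signals of 12666, 12355 and 18362 in the valve and 25.2, 15.9 and 20.1 in the aorta, and the Y-linked gene Eif2s3y had 3.38, 8.91 and 1.39 in the valve and 1648, 1379 and 1566 in the aorta. The valve arrays thus carried high Xist and low Eif2s3y although the adult samples are labelled male. Other Y-linked probe sets did not all follow: the brighter one of Uty had 1941, 2091 and 2374 in the valve and 764, 580.2 and 636 in the aorta (1.70 ± 0.25), its dim one was called lower (at least 1.55-fold), and those of Sry and Tspy1 were near background and not called. Sex and tissue cannot be told apart. Of 617 probe sets on the X chromosome, 18.2% were called higher and 13.9% lower, against 10.2% and 15.7% of all probe sets.

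Markers of other tissues stood out on single arrays. The skeletal muscle list of 26 genes had a median log2 signal of 14.0 on adult aorta 1 and 5.45 to 7.04 on the other 5 arrays, and the squamous epithelium list of 20 genes 13.3 against 5.41 to 6.92. Summed signals of the skeletal muscle list ranged over 16141 to 453591 in the aorta and 6044 to 19156 in the valve, and those of the squamous list over 2397 to 268887 and 2184 to 2743. On adult aorta 1 the keratin gene Krt13 had a signal of 37297. The white fat list was highest on adult aorta 2, at 13.1, and the red blood cell list of 8 genes on adult valve 3, at 13.1. Smooth muscle and endothelial markers had signal in both groups, and their median levels did not separate the labelled tissues. The endothelial list had 9.44 to 11.0 on valve arrays and 8.54 to 9.85 on aorta arrays. Smooth muscle genes had median levels of 11.4, 12.6 and 13.3 on the aorta arrays, with 12.3, 11.4 and 8.96 on the valve arrays, and the endothelial list was highest on adult valve 3 (11.0). The cardiac muscle list had 10, 12.8 and 7.62 on valves 1 to 3 and 11, 6.02 and 6.02 on aortas 1 to 3. The part of fat, heart muscle, skeletal muscle, epithelium and blood in the results was not tested.

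**Figure D1:**
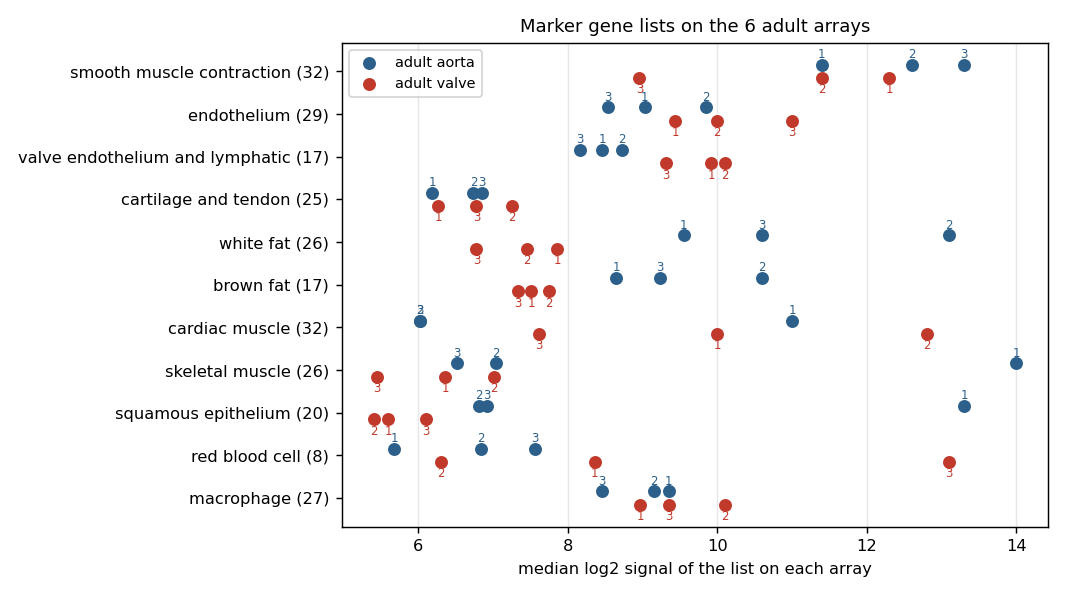
Median log2 signal of 11 marker gene lists on each of the 6 adult arrays (points, numbered by replicate; blue, aorta; red, valve; number of genes measured in brackets). Adult aorta 1 lies apart at 14.0 for skeletal muscle and 13.3 for squamous epithelium, adult aorta 2 at 13.1 for white fat and adult valve 3 at 13.1 for red blood cells.

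Of 31042 probe sets, 8038 (25.9%) passed at an adjusted p under 0.05 in limma, 3153 higher in the valve (10.2%) and 4885 lower (15.7%). Of these calls, 2434 and 4388 reached a 2-fold difference. The median difference over all probe sets was -0.34 in log2. With each array centred on its median this became 0.05, and the split of calls turned to 5237 higher and 2753 lower. Quantile normalization gave 3762 and 3083. Signals of the 2 groups did not overlap for 12092 probe sets (39.0%). By gene, taking the brightest probe set of each of 14217 genes, 1704 were higher (12%) and 1929 lower (13.6%), at a median of -0.21. The shares of 12% and 13.6% are the background for the counts of genes that follow, in which each gene stands for its brightest probe set unless another is named. Signals are listed in the order of arrays 1, 2 and 3, and differences are valve minus aorta in log2 ± standard error.

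Calls on bright and on dim probe sets of the same genes differed in direction. Of 4525 genes with at least 2 probe sets, 2627 had a call on some probe set. Every probe set was called higher for 77 genes and lower for 161, and 337 genes (12.8% of the 2627) had calls in opposite directions. The brightest probe set of a gene had a median difference of 0.08 and the dimmest -0.95. Brightest probe sets were called higher in 856 genes and lower in 528, dimmest ones higher in 197 and lower in 1316. Within 1575 of these genes the probe sets spanned more than 2 in log2. The median range within a gene was 1.49 in log2.

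**Figure D2:**
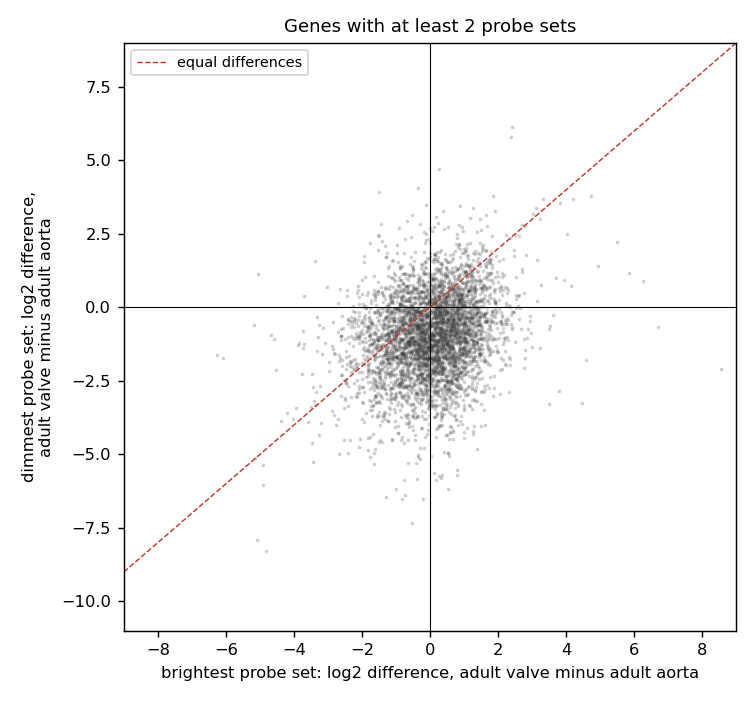
Log2 difference, adult valve minus adult aorta, on the dimmest probe set (y axis) against the brightest (x axis) for the 4525 genes with at least 2 probe sets, 1 point per gene. The cloud is centred near 0.08 on the x axis and -0.95 on the y axis, so most points lie below the dashed line of equal differences.

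Endothelial genes were called higher in the valve more often than genes in general. Of the endothelium list 9 of 29 genes were higher and 1 lower (median difference 1.26; 7 to 14 higher and 0 to 2 lower with one adult array left out), and of the list for valve endothelium and lymphatic vessels 7 of 17 genes were higher and 0 lower (median difference 1.21; 3 to 8 higher and 0 to 1 lower with one adult array left out). Ptprb, a tyrosine phosphatase of endothelial junctions, had signals of 4956, 10462 and 24406 in the valve and 1197, 1858 and 677 in the aorta. No aorta array reached the lowest valve array, and both probe sets of the gene were called (brightest 3.24 ± 0.49, adjusted p = 0.00085). Tek, the receptor for angiopoietins, had 4419, 7267 and 16258 in the valve and 1123, 2444 and 1083 in the aorta, a difference of 2.49 ± 0.45 (adjusted p = 0.0025). Procr, the endothelial receptor for protein C, had 2570.3, 6059.9 and 9064 in the valve and 622, 734 and 284 in the aorta. It differed by 3.36 ± 0.48 (adjusted p = 0.00066), and the von Willebrand factor gene Vwf by 2.57 ± 0.43 with 3805, 4282 and 7464 in the valve and 358, 1451 and 1109 in the aorta. Valve 3 was the highest valve array for each of these genes, and no aorta array overlapped with the valve. Among genes of valve endothelium, Cldn11, a tight junction claudin, had 1428, 4221 and 14066 in the valve and 141, 261 and 167 in the aorta and differed by 4.59 ± 0.60 (adjusted p = 0.00041). Prox1, the transcription factor of lymphatic and valve endothelium, had 541, 1090.4 and 2923 in the valve and 287, 187 and 169 in the aorta. It differed by 2.52 ± 0.47 (adjusted p = 0.003). Cldn11 and Prox1 were each called on 1 of 2 probe sets. Nfatc1, a calcineurin-controlled factor needed for valve growth, stood at 1.49 ± 0.35 (adjusted p = 0.01). Lyve1, the hyaluronan receptor of lymphatic vessels, was called on both probe sets, the brighter at 1.80 ± 0.48, a call lost without adult valve 2. Pecam1, the platelet-endothelial adhesion molecule, did not pass: it had 395, 710.0 and 1378 in the valve and 439.8, 1085 and 657 in the aorta, overlapping groups, and stood at 0.10 ± 0.42 (adjusted p = 0.88). The endothelium list had 14 higher without adult valve 1 and 7 without adult valve 3, and the valve endothelium list 3 without adult valve 2. With centring the first had 17 higher. Cd36, a fatty acid receptor shared with fat cells, was the single endothelial gene lower in the valve, and lost its call without any adult array other than aorta 1.

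Transcription factors of the heart and outflow tract had calls in both directions, a few of them large and higher in the valve. Of that list 6 of 33 genes were higher and 2 lower (median difference 0.55; 5 to 6 higher and 2 to 4 lower with one adult array left out). Hand2, a regulator of the outflow tract, was called on 1 of 2 probe sets. There it had signals of 371, 508 and 657 in the valve and 28.8, 52.8 and 45.4 in the aorta. The groups did not overlap, and the difference was 3.60 ± 0.32 (adjusted p = 5.3e-05 in limma), at least 9.12-fold against the level of absent control RNAs. This level, 54.6, was the highest signal of bacterial control RNAs on the arrays that lacked them, newborn aorta 2 and 3. It was not measured on the adult arrays. Such a bound is given wherever the geometric mean of the dimmer group was at or under this level. It compares geometric means, with dimmer-group signals under 54.6 raised to it. The bound thus carries no sampling error, and single arrays can differ by less. Meox1, a homeobox factor of fibroblasts and somites, had 582, 1195 and 1619 in the valve and 88.5, 51.9 and 7.16 in the aorta, at least 16.2-fold higher, and Msx1, which acts in valve cushions, had 1920, 1299 and 1349 in the valve and 155, 396 and 259 in the aorta (2.58 ± 0.43, adjusted p = 0.0014). Gata4, the zinc finger factor of cardiac and cushion cells, gave 3.79 ± 0.42 on its bright probe set, with 567, 1166 and 1998 in the valve and 71.7, 64.2 and 108 in the aorta. Its dim probe set was called in the other direction, with 7.83, 10.7 and 17.8 in the valve and 91, 83.5 and 73 in the aorta, at least 1.5-fold lower against the absent control level. Gata5, which had 1 probe set, stood at 3.50 ± 0.43 (at least 2.67-fold, adjusted p = 0.00028). Tcf21, a factor of fibroblast precursors, was also called higher. Tbx3, a T-box repressor, was at least 3.44-fold lower on 1 of 4 probe sets, and Twist2 was called lower at signals of 2.54 to 99.4, for the most part near the level of absent controls.

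The ETS factor Etv1, which responds to growth factor signalling and was chosen after its values were seen, was called higher on 4 of its 5 probe sets. Its brightest had 2088, 4427 and 4681 in the valve and 272, 228 and 195 in the aorta, a difference of 3.94 ± 0.32 (adjusted p = 4.0e-05). Lmo3, a LIM-only transcriptional cofactor, was at least 7.41-fold higher on 1 of 2 probe sets, with 307, 480.3 and 451 in the valve and 8.33, 38.5 and 7.39 in the aorta. Between the newborn means, Etv1 stood at 3.11, Lmo3 at 1.62 and Meox1 at 1.20.

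Promoter sequence is shown for genes of these groups because the zinc finger factor genes Gata5 and, on its bright probe set, Gata4 were higher in the valve, as were several heart muscle genes. RefSeq windows (GRCr8) of 250 bases before and 50 after the start site were searched on both strands for AGATAA. This is a form of the site that GATA factors bind, written TTATCT on the other strand, and other forms were not searched. Both this motif and the genes searched were chosen after the values were seen. Of the 14 members of the cardiac muscle and outflow factor lists called higher in the valve, 8 had a window. The motif lay in at least 1 window of 5 of these genes. Of all 33469 windows 11.6% held it, a share by window and not by gene. Matches are capitalised in the windows of Nppb (chr5:163699758-163700057, plus strand), Tnni3 (chr1:78342321-78342620, plus strand) and Hand2 (chr16:37931439-37931738, minus strand), which describe letters and not binding.
Nppb: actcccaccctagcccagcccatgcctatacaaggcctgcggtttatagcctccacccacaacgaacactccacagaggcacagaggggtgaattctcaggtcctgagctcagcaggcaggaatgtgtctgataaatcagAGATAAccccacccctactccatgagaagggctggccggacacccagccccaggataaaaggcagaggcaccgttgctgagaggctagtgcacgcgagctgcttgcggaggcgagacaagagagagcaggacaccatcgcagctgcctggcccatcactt
Tnni3: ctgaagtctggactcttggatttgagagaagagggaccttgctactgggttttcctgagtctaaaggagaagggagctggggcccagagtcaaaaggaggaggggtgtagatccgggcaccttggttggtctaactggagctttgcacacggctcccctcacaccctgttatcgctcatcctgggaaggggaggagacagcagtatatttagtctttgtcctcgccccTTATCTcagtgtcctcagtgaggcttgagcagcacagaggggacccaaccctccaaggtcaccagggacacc
Hand2: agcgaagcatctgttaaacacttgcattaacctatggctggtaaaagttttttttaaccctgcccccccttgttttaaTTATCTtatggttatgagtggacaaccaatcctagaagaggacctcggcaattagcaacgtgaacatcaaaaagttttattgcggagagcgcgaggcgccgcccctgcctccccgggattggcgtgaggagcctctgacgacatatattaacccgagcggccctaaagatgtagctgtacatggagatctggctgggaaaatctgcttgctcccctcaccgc
A CArG box, the motif of serum response factor, was searched in the same windows for the smooth muscle list. It was found in 2 of 25 genes with a window (Cnn2 and Ldb3), a count by gene, and in 1.64% of all windows, a share by window.

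Axial patterning genes went both ways. Of the Hox and axial position list 2 of 20 genes were higher and 5 lower (median difference -1.29; 2 higher and 2 to 6 lower with one adult array left out). The genes lower in the valve were all Hox genes. Hoxb3, an anterior Hox gene, had 187, 206 and 75 in the valve and 526, 765 and 708 in the aorta, with no overlap, and differed by -2.21 ± 0.41 (adjusted p = 0.0027). Hoxc4, a neighbouring anterior gene, was at least 3.24-fold lower on its brighter probe set (15.4, 21.4 and 7.30 in the valve and 652, 101 and 84.9 in the aorta) and not called on the other (-0.80 ± 0.89). Hoxc8, Hoxa7 and Hoxa5 were also lower, at least 1.27-fold, at least 1.69-fold and at least 5.86-fold, and lost their calls without adult aorta 2 or adult valve 3. The Hox cofactors went the opposite way: Meis2, a homeodomain partner, had 4829, 4404 and 6802 in the valve and 508, 573 and 812 in the aorta (3.09 ± 0.46, adjusted p = 0.00076) and Pbx3, another partner, 3262, 4130.1 and 6141 in the valve and 494, 901 and 1056 in the aorta (2.49 ± 0.32, adjusted p = 0.00039). Without adult aorta 2 or adult valve 3 the list had 2 genes higher and 2 lower.

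Genes of cartilage and tendon matrix were called higher in the valve more often than genes in general. Of that list 8 of 25 genes were higher and 2 lower (median difference 0.72; 3 to 7 higher and 0 to 3 lower with one adult array left out). Comp, the cartilage oligomeric protein that binds collagen, had 1147, 4559 and 1166 in the valve and 69.5, 180.4 and 112 in the aorta. The lowest valve array lay above every aorta array, and the difference was 4.03 ± 0.60 (adjusted p = 0.00079). Trps1, a GATA-type repressor of cartilage, was called on all 4 probe sets (brightest 1.55 ± 0.24, adjusted p = 0.00095), with 1099, 1724 and 1890.1 in the valve and 469, 478 and 629.8 in the aorta. Cilp2, a matrix protein of cartilage intermediate layers, had 223, 512 and 419.5 in the valve and 25.3, 16.6 and 80.2 in the aorta (at least 5.85-fold, adjusted p = 0.012), and Thbs4, a thrombospondin of tendon, stood at 2.65 ± 0.69, a call lost without adult aorta 2 or adult valve 2. Hapln1, which links hyaluronan to proteoglycan, was called on all 3 probe sets (brightest 2.40 ± 0.62, adjusted p = 0.015) but lost its call without adult valve 2 or 3. The list had 3 higher genes without adult valve 2 and 5 without adult aorta 2. Of the mineralisation list 0 of 17 genes were higher and 0 lower (median difference -0.85; 0 higher and 0 to 2 lower with one adult array left out), with 1 at an unadjusted limma p under 0.05.

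Other matrix groups had calls mostly on the valve side, in shares above the 12% of all genes for elastic fibres and under it for the others. Of the elastic fibre list 4 of 21 genes were higher and 0 lower (median difference 0.37; 3 to 5 higher and 0 to 4 lower with one adult array left out), of collagens and their hydroxylases 3 of 28 genes were higher and 1 lower (median difference 0.06; 2 to 4 higher and 0 to 8 lower with one adult array left out), and of proteoglycans and hyaluronan 2 of 29 genes were higher and 1 lower (median difference 0.15; 1 to 3 higher and 1 to 8 lower with one adult array left out). Without adult aorta 1 the elastic fibre list had 3 genes higher and 4 lower. Fbn2, a fibrillin gene, was 1 of the 4 elastic fibre genes called higher. Its group means (42.2 in the valve, 13.8 in the aorta) lay under the absent control level in both tissues, so no fold is given. The call of Fbn2 was lost with an offset of 32 added to each signal (adjusted p = 0.098 in limma), with array weights and without adult aorta 1. Fbln1, a fibulin that binds elastic fibres, had 1196, 1054 and 869.5 in the valve and 486, 508 and 499 in the aorta. Both of its probe sets were called, with no overlap, at 1.05 ± 0.21 (adjusted p = 0.004) on the brighter. Efemp1, fibulin-3, had 6217, 5293 and 6265 in the valve and 2949, 771 and 223 in the aorta and differed by 2.89 ± 0.72 (adjusted p = 0.013). Col8a2, a short-chain collagen of basement membranes under endothelium, had 852, 2037 and 1162 in the valve and 191, 546 and 269 in the aorta (2.06 ± 0.43, adjusted p = 0.0052). Adamts5, a protease of versican and aggrecan, had 2733, 1883 and 2056 in the valve and 556, 1093 and 763 in the aorta (1.5 ± 0.27, adjusted p = 0.0023). Adamts5 was called on 1 of its 2 probe sets. All of these genes kept their calls when each adult array was left out in turn. Vcan, the large proteoglycan versican, was called on 3 of 5 probe sets and stood at 2.35 ± 0.78. Its aorta signals were 231, 2476 and 3816, lowest on adult aorta 1, and without that array the difference was 1.11. The call was lost without any one of the valve arrays. Eln, the elastin gene, varied within the aorta (349, 11900 and 19375 on aorta arrays 1 to 3) and was not called (-2.42 ± 1.18). Without adult aorta 1 the elastic fibre list had 3 higher and 4 lower, the collagens 3 and 8 and the proteoglycans 3 and 8, so the split of these lists depends on that array. With centring the collagens had 8 higher and 0 lower.

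Basement membrane genes, matricellular genes and proteases were called in shares near or under those of all genes. Of the basement membrane list 0 of 19 genes were higher and 2 lower (median difference -0.28; 0 higher and 1 to 5 lower with one adult array left out). Hspg2, perlecan, had 325, 206 and 270.1 in the valve and 545, 2141 and 2599 in the aorta and differed by -2.46 ± 0.49 (adjusted p = 0.0041), with every valve array lower. Sdc4, a cell surface heparan sulfate proteoglycan, had 1452, 869.8 and 534 in the valve and 3742, 2783 and 2178 in the aorta (-1.69 ± 0.33, adjusted p = 0.0035). Of the matricellular list 1 of 16 genes were higher and 2 lower (median difference -0.26; 0 to 1 higher and 0 to 4 lower with one adult array left out), and of the proteases and inhibitors 3 of 25 genes were higher and 2 lower (median difference -0.29; 2 to 5 higher and 1 to 6 lower with one adult array left out). Timp3, a metalloprotease inhibitor, had 15371, 15743 and 16557 in the valve and 1163, 5619 and 8618 in the aorta and differed by 2.05 ± 0.54 on its brightest probe set (1.19 without adult aorta 1), while another of its probe sets was called lower. Adam19, a membrane metalloprotease of cushion development, was lower on 1 of 4 probe sets (-1.46 ± 0.29). Adamts19, a secreted metalloprotease chosen after its values were seen, had 638, 1332 and 2063 in the valve and 96.5, 23 and 70.2 in the aorta (at least 16.8-fold, adjusted p = 0.00033).

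Signalling genes moved in both directions. Of the BMP and TGF-beta list 6 of 34 genes were higher and 3 lower (median difference 0.23; 4 to 8 higher and 1 to 6 lower with one adult array left out). Bmper, a secreted BMP modulator, had 925, 1148 and 434 in the valve and 152, 187 and 130.2 in the aorta (2.32 ± 0.35, adjusted p = 0.00085). Fst, the activin-binding follistatin, had 564, 683 and 1125 in the valve and 262, 369.6 and 163 in the aorta, and both of its probe sets were called. The bone morphogenetic protein gene Bmp2, called on both probe sets, stood at 1.91 ± 0.46 (adjusted p = 0.011). Bmpr2, the type 2 BMP receptor, had 3074, 2627 and 3678 in the valve and 658, 661 and 811 in the aorta and differed by 2.13 ± 0.19 (adjusted p = 5.5e-05) on its bright probe set. The dim one, with its valve mean under the absent control level, was not called. Tgfb1, the TGF-beta 1 ligand, had 1 probe set, with 4.58, 3.11 and 26.9 in the valve and 229.8, 487 and 499 in the aorta, at least 6.99-fold lower. Id3, an inhibitory target of BMP signalling, stood at -1.47 ± 0.44 and lost its call without adult aorta 2 or 3 or adult valve 1 or 3. Gdf6, a ligand, was the other gene called lower (at least 1.46-fold). Inhba, the activin A subunit gene, chosen after its values were seen, differed by 3.80 ± 0.43 on one probe set and 1.85 ± 0.82 (not called) on its brighter one.

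Among the growth factor genes listed, Pdgfra, the receptor of fibroblasts, had the smallest adjusted p. Of the IGF and growth factor list 8 of 42 genes were higher and 5 lower (median difference -0.37; 5 to 10 higher and 3 to 8 lower with one adult array left out). Pdgfra had 6821, 7771 and 6694 in the valve and 1258, 2072 and 1433 in the aorta and differed by 2.19 ± 0.25 (adjusted p = 0.0002). Vegfc, the lymphatic growth factor, had 1654, 1883 and 2913 in the valve and 395, 532 and 485 in the aorta (2.16 ± 0.30, adjusted p = 0.00056). Igfbp3, the main carrier of circulating IGFs, was called on both probe sets, with 5551, 2203 and 1618 in the valve and 293, 532 and 240.2 in the aorta and 3.02 ± 0.49 (adjusted p = 0.0013) on the brighter. Valve 1 was the highest array for Igfbp3. Fgf7, a growth factor for epithelium, was lower, with 44.2, 43.2 and 63 in the valve and 271, 309 and 231 in the aorta (at least 4.68-fold, adjusted p = 0.0018), and Igfbp5 was called lower on 4 of 5 probe sets (brightest -1.46 ± 0.45, a call lost without adult aorta 1 or 2 or adult valve 2 or 3). Of the Wnt list 1 of 32 genes were higher and 1 lower (median difference 0.28; 1 to 3 higher and 0 to 4 lower with one adult array left out), with Tcf7l2, a transcription factor of the pathway, at 2.12 ± 0.27 and the ligand gene Wnt6 at -1.85 ± 0.49 (call lost without adult aorta 2 or adult valve 1). Of the Notch list 1 of 16 genes were higher and 4 lower (median difference -0.52; 0 to 2 higher and 1 to 4 lower with one adult array left out). The receptor genes split, with Notch1 at 1.88 ± 0.50, Notch2 at least 2.36-fold lower and Notch3 at -1.54 ± 0.41. Of these, Notch2 alone kept its call with any adult array left out: Notch1 lost it without adult aorta 2 or 3 or adult valve 3, and Notch3 without adult aorta 2 or adult valve 1 or 2. Notch2 had 1 probe set, however, with valve signals of 4.00, 21.2 and 7.33, under the absent control level. Of the semaphorins and guidance list 6 of 30 genes were higher and 5 lower (median difference 0.10; 4 to 7 higher and 2 to 6 lower with one adult array left out): Nrp1, a co-receptor for VEGF and semaphorins, was called on both probe sets (1.67 ± 0.32), and Ntn1, netrin-1, stood at -2.07 ± 0.34. Sema6d, a membrane semaphorin, had 1242, 1385 and 1410 in the valve and 413, 465 and 486 in the aorta (1.57 ± 0.21). Plxnd1, a semaphorin receptor of endothelium, was lower (-1.47 ± 0.30). Among the genes named above, Notch1 and Wnt6 were each called on 1 of 2 probe sets, Tcf7l2 on 2 of 5 and Ntn1 on 2 of 3.

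Smooth muscle genes were lower in the valve where they were called, in a share not far above that of all genes (13.6%), and the brightest contractile genes varied widely between valve arrays. Of the smooth muscle list 0 of 32 genes were higher and 6 lower (median difference -1.17; 0 to 1 higher and 3 to 14 lower with one adult array left out). Acta2, the smooth muscle actin, had 2123, 1139.8 and 134 in the valve and 3506, 22992 and 32958 in the aorta. Valve 3 was the lowest array and aorta 1 the lowest of the aorta, with no overlap, and the difference was -4.33 ± 0.93 (adjusted p = 0.0062). Smtn, which binds contractile actin, was called on both probe sets, the brighter at -1.94 ± 0.41 (adjusted p = 0.0059) with 970.4, 522 and 237 in the valve and 1410, 2196 and 2169 in the aorta. Myh11, smooth muscle myosin, had 16932, 11304 and 403 in the valve and 5209, 28019 and 37283 in the aorta and was not called on its bright probe set (-2.05 ± 1.14). The dim probe set was called at -4.48 ± 1.04. Tagln and Cnn1, both actin-binding proteins, stood at -2.03 ± 0.93 and -3.03 ± 1.22 and were not called, with valve 3 far below valves 1 and 2 (4294, 2368 and 69.2 for Cnn1). P2rx1, the ATP receptor of arterial muscle, chosen after its values were seen, was called on both probe sets, the brighter at -3.48 ± 0.77. Without adult aorta 1 the smooth muscle list had 14 lower and 1 higher, and without adult valve 3, adult aorta 2 or adult aorta 3 it had 3 lower and none higher. On the scale centred on array medians 3 were lower.

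Vessel tone and ion channel genes followed a mixed pattern. Of the vasoactive list 3 of 43 genes were higher and 7 lower (median difference -0.41; 2 to 5 higher and 4 to 11 lower with one adult array left out), and of ion channels and calcium handling 5 of 47 genes were higher and 2 lower (median difference 0.09; 2 to 4 higher and 1 to 6 lower with one adult array left out). Pde5a, the cGMP phosphodiesterase of smooth muscle, had 49.8, 38.5 and 71.3 in the valve and 228, 373 and 617 in the aorta. All valve arrays were lower, at least 6.27-fold (adjusted p = 0.00067). Ramp1, the partner of the CGRP receptor, had 1449, 858 and 1104 in the valve and 2405, 3284 and 3797 in the aorta (-1.48 ± 0.31, adjusted p = 0.0054). Atp2b4, a plasma membrane calcium pump, had 53.9, 42.7 and 45.9 in the valve and 227, 580.2 and 753 in the aorta (at least 8.47-fold, adjusted p = 0.00042). Vipr1, a receptor for vasoactive intestinal peptide, was higher by 1.89 ± 0.48 and Gjc1, connexin 45, by 1.24 ± 0.29. Kcna2, a voltage-gated potassium channel gene, was higher by 2.40 ± 0.52 (adjusted p = 0.0066) and called on 1 of 2 probe sets.

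Fat genes were lower in the valve wherever they were called. Of the white fat list 0 of 26 genes were higher and 17 lower (median difference -3.15; 0 higher and 11 to 20 lower with one adult array left out), of brown fat 0 of 17 genes were higher and 8 lower (median difference -2.58; 0 to 1 higher and 5 to 12 lower with one adult array left out), and of the enzymes of fatty acid oxidation 0 of 26 genes were higher and 15 lower (median difference -1.59; 0 to 1 higher and 7 to 18 lower with one adult array left out). Dgat2, which makes triglyceride, had 224, 113 and 176 in the valve and 7306, 12576 and 1887 in the aorta on its brighter probe set. The valve arrays lay below every aorta array, and both probe sets were called (-5.08 ± 0.59 on the brighter and at least 76.7-fold lower on the other). Fabp4, the fatty acid carrier of adipocytes, had 289, 393 and 66.4 in the valve and 2502, 33990 and 11894 in the aorta (-5.68 ± 0.82, adjusted p = 0.00069). Gpd1, which supplies glycerol phosphate, was called on both probe sets, at -4.84 ± 0.69 on the brighter (233, 219.9 and 193 in the valve and 2632, 28341 and 3087 in the aorta). Thrsp, a lipogenic regulator, was called on all 3, and Cebpa, the adipocyte transcription factor, on all 5 (-2.72 ± 0.59 on its brightest). Ucp1, the uncoupling protein that marks brown fat, had 19.7, 3.30 and 63.1 in the valve and 302, 37326 and 16514 in the aorta, so that aorta 1 lay far below aortas 2 and 3 and the difference was at least 99.6-fold. Cox8b, a cytochrome oxidase subunit of brown fat and muscle, had 214, 1228 and 346 in the valve and 12350, 17566 and 4106 in the aorta (-4.42 ± 0.67, adjusted p = 0.00087). In the oxidation list, Acadm, medium-chain acyl-CoA dehydrogenase, had 2778, 4307 and 1557 in the valve and 9288, 22780 and 8321 in the aorta (-2.19 ± 0.48, adjusted p = 0.0069), and Acaa2, the mitochondrial thiolase, was called on both probe sets (-2.62 ± 0.54, adjusted p = 0.0048). Cpt1b, the carnitine acyltransferase of muscle and brown fat, had 209, 1196 and 219 in the valve and 2399, 8607 and 1794 in the aorta (-3.13 ± 0.69, adjusted p = 0.007). Hadha, a subunit of the trifunctional protein, stood at -1.70 ± 0.38 and was called on 2 of 3 probe sets.

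The fat calls moved with single arrays. Without adult aorta 2, the array richest in fat, the white fat list had 12 genes lower, brown fat 5 and fatty acid oxidation 7. Without adult aorta 1 these lists had 20, 12 and 18 lower, and 1 gene of the oxidation list higher. Without adult valve 1 they had 13, 5 and 8 lower, without adult valve 2 they had 11, 8 and 17, and without adult valve 3 they had 13, 6 and 8. White fat level itself was 9.55, 13.1 and 10.6 on aortas 1 to 3 against 7.86, 7.45 and 6.78 on valves 1 to 3, so each aorta array stood above each valve array. Whether aortic fat or the vessel wall gave this signal was not tested.

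Heart muscle genes were higher in the valve where they were called, for the most part on dim aorta signals. Of the cardiac muscle list 8 of 32 genes were higher and 0 lower (median difference 1.80; 7 to 17 higher and 0 to 1 lower with one adult array left out). Tnnt2, cardiac troponin T, had 4249, 18839 and 1864 in the valve and 107, 12.2 and 2.15 in the aorta. Valve 2 was the highest array, and the difference was at least 77.5-fold (adjusted p = 0.0004), on 1 of 2 probe sets. Tnni3, cardiac troponin I, had 532, 7085 and 522 in the valve and 18.2, 23 and 25 in the aorta, at least 22.9-fold higher. Myh6, the atrial myosin heavy chain, had 5099, 19570 and 945 in the valve and 6.63, 106 and 124 in the aorta, and Myl2, the ventricular light chain, had 576, 878 and 294 in the valve and 13.4, 18.7 and 6.70 in the aorta and was called on both probe sets. They were at least 50.9-fold and at least 9.70-fold higher. The other probe set of Myh6 was not called (-0.66 ± 1.69). It had 9.12, 650 and 2.48 in the valve and 4.92, 139 and 85.0 in the aorta. Nppb, the B-type natriuretic peptide gene, had 106, 2608 and 1275 in the valve and 6.24, 25.7 and 18.1 in the aorta and was at least 12.9-fold higher, and Ankrd1, a stretch-responsive sarcomere protein, had 3234, 14395 and 301 in the valve and 73.5, 85.4 and 119 in the aorta (26.6-fold). The list's median level ranged from 7.62 to 12.8 on the valve arrays and was 11.0, 6.02 and 6.02 on aortas 1 to 3. Mb, the myoglobin gene of heart and skeletal muscle, had 29490 on aorta 1 and was not called. Without adult valve 2 the list had 7 higher and 1 lower, and without adult aorta 1 17 higher and none lower. Tnnc1 and Myh7 (at least 12.4-fold), further sarcomere genes, made up the 8.

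Among other tissue markers, list counts were small and moved with single arrays. Of the skeletal muscle list 0 of 26 genes were higher and 3 lower (median difference -2.66; 0 to 1 higher and 1 to 8 lower with one adult array left out), of squamous epithelium 0 of 20 genes were higher and 2 lower (median difference -3.02; 0 higher and 1 to 4 lower with one adult array left out), of glandular and airway epithelium 1 of 22 genes were higher and 0 lower (median difference -0.92; 1 to 2 higher and 0 to 1 lower with one adult array left out), and of thymocytes 2 of 12 genes were higher and 1 lower (median difference 0.14; 1 to 2 higher and 0 to 1 lower with one adult array left out). The skeletal muscle list had 8 genes lower without adult aorta 3, 5 without adult aorta 2 and 1 without adult valve 3. The squamous list had 4 lower without adult aorta 2 or 3, and 1 without adult aorta 1, adult valve 1 or adult valve 3. Mybpc2, a myosin-binding protein of fast muscle, was called on both probe sets, with 366, 195 and 127 in the valve and 11611, 1649 and 611 in the aorta (-3.44 ± 0.83, and -2.27 without adult aorta 1). Tp63, the master factor of squamous epithelium, had 4.39, 4.34 and 5.26 in the valve and 2071, 106 and 146 in the aorta. It was at least 5.83-fold lower, on 1 of 2 probe sets. In both genes aorta 1 was the highest array. Cd1d1, a lipid-presenting molecule on the thymocyte list, was higher (2.27 ± 0.47). Dsg1 and Lce1f, genes of cornified epithelium, were called lower, with valve signals under the absent control level. Lce1f had 2.28, 4.58 and 14.9 in the valve and 5307, 127 and 166 in the aorta (at least 8.82-fold). Dsg1 had 1.61, 6.18 and 9.60 in the valve and 11103, 35 and 111 in the aorta on 1 of 3 probe sets (at least 6.43-fold), and the other two were not called. Aorta 1 was far the highest array for both. The call of Dsg1 was lost without adult valve 1 or 2, and with the offset of 32 added to each signal (adjusted p = 0.097 in limma). Of the mast cell list 1 of 12 genes were higher and 0 lower (median difference -0.51; 1 to 2 higher and 0 lower with one adult array left out), of red blood cells 1 of 8 genes were higher and 0 lower (median difference 2.25; 0 to 7 higher and 0 to 1 lower with one adult array left out), of melanocytes 1 of 8 genes were higher and 0 lower (median difference -0.40; 0 to 1 higher and 0 to 1 lower with one adult array left out), of Schwann cells 0 of 16 genes were higher and 1 lower (median difference -0.54; 0 to 1 higher and 0 to 2 lower with one adult array left out), of neurons 0 of 19 genes were higher and 0 lower (median difference -0.40; 0 higher and 0 to 1 lower with one adult array left out), and of lymphocytes and plasma cells 0 of 14 genes were higher and 0 lower (median difference -0.41; 0 to 1 higher and 0 to 1 lower with one adult array left out). At an unadjusted limma p under 0.05, 1 neuron and 1 lymphocyte and plasma cell genes passed. Gata2, a factor shared by mast cells and endothelium, was the one mast cell gene called (1.96 ± 0.49, on 1 of 2 probe sets). Epb42 was the one red cell gene called (at least 3.15-fold). Without adult valve 2, 7 red cell genes were higher. Pmel, the one melanocyte gene called, and Cadm4, the one Schwann cell gene, had group means under the absent control level in both tissues, so no fold is given, and Pmel lost its call with the offset of 32 (adjusted p = 0.064 in limma). Of the mesothelium list 2 of 11 genes were higher and 0 lower (median difference 1.36; 1 to 4 higher and 0 to 1 lower with one adult array left out). Gpm6a, a membrane glycoprotein of mesothelium and neurons, had 7286, 4216 and 4513 in the valve and 379, 175 and 139 in the aorta, with no overlap, and differed by 4.63 ± 0.49 (adjusted p = 0.00015). Mesothelium had a summed signal of 6189 to 20328 on valve arrays and 1722 to 2588 on aorta arrays.

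Immune genes were a smaller group. Of the macrophage list 5 of 27 genes were higher and 0 lower (median difference 0.56; 0 to 5 higher and 0 lower with one adult array left out), of antigen presentation 0 of 16 genes were higher and 1 lower (median difference -0.15; 0 higher and 0 to 2 lower with one adult array left out), of complement and coagulation 6 of 20 genes were higher and 1 lower (median difference 0.20; 4 to 6 higher and 1 to 2 lower with one adult array left out), and of chemokines and cytokines 3 of 27 genes were higher and 3 lower (median difference 0.17). C1s, a protease of the classical complement pathway, had 14382, 10797 and 13684 in the valve and 2676, 4746 and 3636 in the aorta. The valve arrays lay well above the aorta arrays, at 1.84 ± 0.36 (adjusted p = 0.0038). Tfpi, the tissue factor pathway inhibitor, was called on both probe sets (1.77 ± 0.38), and Cfd, the complement factor secreted by fat, was lower (-3.34 ± 0.62, adjusted p = 0.0027). Cxcr4, a chemokine receptor, was called higher on 2 of 3 probe sets, with 379, 803 and 1332 in the valve and 143, 79 and 167 in the aorta, Cxcl1, a neutrophil chemokine, was at least 2.27-fold higher, and Ccl11, eotaxin, and Ccl20, a mucosal chemokine, were at least 9.48-fold and at least 2.53-fold lower. Pros1, the anticoagulant protein S, stood at 1.48 ± 0.38. RT1-Ba, a class II gene, was the one antigen presentation gene called, on 1 of 4 probe sets. The macrophage list had 1 higher without adult aorta 3 and 0 without adult valve 2, the array on which its median level was highest (10.1).

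Antibacterial lectins were higher in the valve. Reg3b had 1221, 3074 and 21764 in the valve and 10.1, 49.7 and 79.4 in the aorta and Reg3g 1994, 1725 and 16540 in the valve and 34.6, 33.2 and 99.3 in the aorta. Both encode secreted lectins known from gut defence, and valve 3 was the highest array for each. They were at least 70.1-fold and at least 57.7-fold higher (adjusted p = 0.00047 and 0.00042). They belong to one gene family, and cross-hybridisation between their probe sets was not tested. Spink1l, a trypsin inhibitor gene, had 145, 237 and 1778 in the valve and 11.2, 4.76 and 44.7 in the aorta and was at least 7.21-fold higher.

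Oxidative defence, clock and cell cycle genes were called in shares under those of all genes, and immediate early genes were lower in a share above it (13.6%). Of the xenobiotic and oxidative defence list 2 of 41 genes were higher and 4 lower (median difference -0.28; 1 to 4 higher and 3 to 4 lower with one adult array left out). Gstm2, a glutathione transferase, had 1384, 894 and 324 in the valve and 9415, 6007 and 5832 in the aorta and differed by -3.23 ± 0.46 (adjusted p = 0.00061), with every valve array lower. Sod2, the mitochondrial superoxide dismutase, had 534, 1122 and 567 in the valve and 3225, 4348 and 1739 in the aorta (-2.05 ± 0.37), and Maob, a monoamine oxidase, was higher (3.04 ± 0.51). Of the clock list 1 of 16 genes were higher and 0 lower (median difference 0.08; 0 to 3 higher and 0 to 1 lower with one adult array left out), of immediate early genes 2 of 21 genes were higher and 4 lower (median difference -0.22; 1 to 4 higher and 3 to 6 lower with one adult array left out), and of the cell cycle list 1 of 32 genes were higher and 3 lower (median difference 0.20; 0 to 5 higher and 1 to 4 lower with one adult array left out). Ier2, an early response gene, had 944, 1479.5 and 2223 in the valve and 342, 203 and 149 in the aorta (2.74 ± 0.34, adjusted p = 0.0003). Ier3 was lower (-1.86 ± 0.32), as were Egr3 (at least 3.21-fold) and Fosl2 (at least 2.29-fold, on 1 of 2 probe sets). Clock, a core clock gene, had calls in both directions on its 4 probe sets. Birc5, survivin of mitotic cells, was at least 3.25-fold lower. With centring the cell cycle list had 5 higher and 2 lower, the reverse of its main split.

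The remaining large rises were genes of other kinds. Coch, cochlin, a secreted matrix protein of the inner ear, had 1424, 7579 and 16092 in the valve and 93.5, 2.37 and 34.4 in the aorta and was at least 85.4-fold higher (adjusted p = 0.0029). Gpr182, an endothelial receptor that binds chemokines, had 905, 2216 and 7983 in the valve and 25.2, 45.6 and 72.9 in the aorta and was at least 41.9-fold higher on 1 of 2 probe sets. For both, valve 3 was the highest array. Gria3, a glutamate receptor subunit, was called on both probe sets, with 235, 443 and 483 in the valve and 4.27, 6.89 and 9.85 in the aorta on one (at least 6.75-fold, adjusted p = 4.0e-05). Bod1l1, a protein of replication fork protection, had 1 probe set, with 401, 358 and 431 in the valve and 9.96, 13.4 and 16.1 in the aorta, at least 7.24-fold higher.

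**Figure D3:**
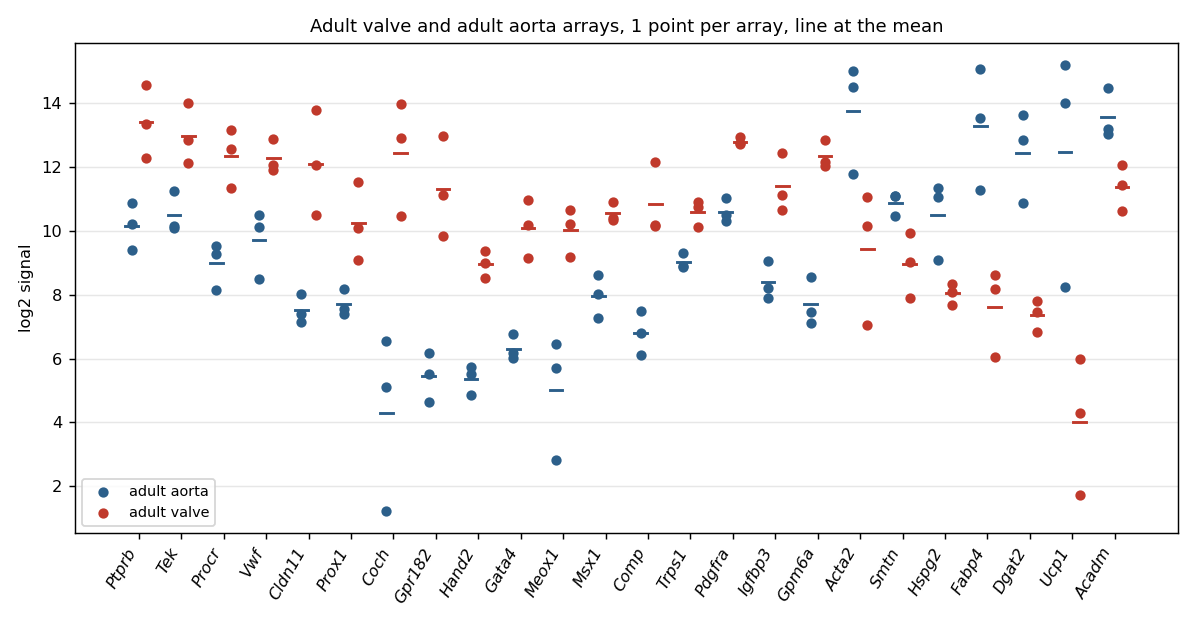
Log2 signal of 24 genes on the 3 adult aorta arrays (blue) and the 3 adult valve arrays (red), 1 point per array and a line at the group mean. Endothelial, transcription factor and matrix genes other than Hspg2 lie higher in the valve. Hspg2, smooth muscle and fat genes lie lower, and Ucp1 spreads widely within the aorta (302 on aorta 1, 37326 and 16514 on aortas 2 and 3).

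Some falls came from one probe set whose gene had a brighter probe set with a far smaller difference. Cav1, the caveolar coat protein of endothelium, muscle and fat, had 121, 184 and 49.6 in the valve and 2912, 7718 and 8362 in the aorta on one probe set, -5.79 ± 0.49 (adjusted p = 4.3e-05). Its brightest had 15244, 13816 and 16709 in the valve and 5633, 17216 and 19287 in the aorta, at 0.30 ± 0.38, and was not called. Here the groups overlapped, with aorta 1 lowest. Cav2, its partner protein, was at least 26.2-fold lower on 1 of 4 probe sets and stood at 0.11 ± 0.47 on the brightest. Clic4, a chloride intracellular channel protein, had called probe sets at least 16.2-fold lower, at -4.08 ± 0.33 and at -1.76 ± 0.30, and its brightest, not called, at 0.26 ± 0.51. Gja1, connexin 43, had 17174, 14252 and 18190 in the valve and 19095, 14530 and 24488 in the aorta on its brightest (-0.20 ± 0.24) and 33.7, 54.1 and 61.6 in the valve and 2478, 1347 and 1284 in the aorta on another (at least 28.6-fold lower). On valve arrays the lowest signals of the dimmer probe sets lay near the level of absent controls.

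Genes of general cell functions were among these too. Plekhb2, an endosomal protein, was at least 25.6-fold lower on one probe set and stood at 0.18 ± 0.49 on the brighter. Ubl7, a ubiquitin-like protein, was at least 13.3-fold lower on one and stood at -0.54 ± 0.39 on the other, and Ppp3r1, the regulatory subunit of calcineurin, was at least 9.23-fold lower and stood at -0.84 ± 0.19 on its brightest. Immt, a protein of mitochondrial cristae, was at least 7.82-fold lower on one probe set and stood at -0.75 ± 0.33 on its brightest. Uqcrc2, a subunit of respiratory complex III, stood at -6.17 ± 0.63 on one and -1.0 ± 0.37 (not called) on its brighter probe set. Col1a1, the main chain of type I collagen, stood at -4.94 ± 0.82 and, on the other probe set, at -1.66 ± 0.75 (not called). Atp5mg, an ATP synthase subunit with 1 probe set, differed by -5.71 ± 0.27 (adjusted p = 2.3e-06), with 158, 292 and 256 in the valve and 12472, 12423 and 10833 in the aorta, and had no second probe set to set beside it. A role of transcript ends in these differences was not tested.

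**Figure D4:**
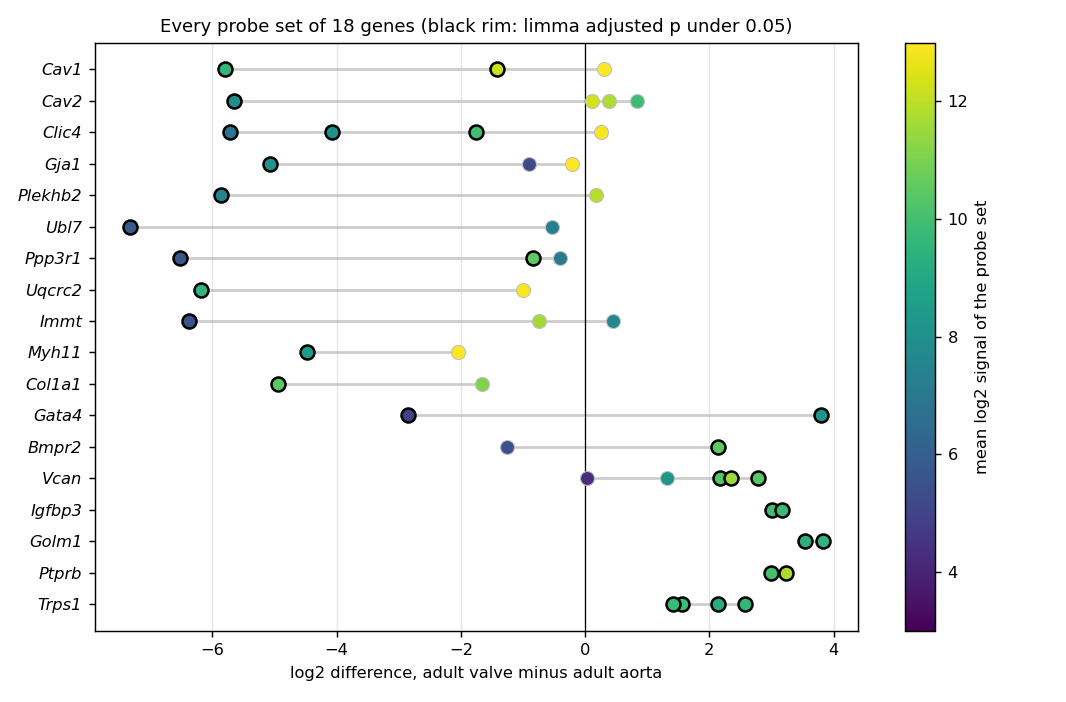
Log2 difference, adult valve minus adult aorta, for every probe set of 18 genes, coloured by the probe set's mean log2 signal; a black rim marks limma adjusted p under 0.05. For the upper genes a dimmer probe set lies far lower than the brightest (Cav1 at -5.79 and 0.30), Gata4 has calls on both sides, and for Igfbp3, Golm1, Ptprb and Trps1 all probe sets lie on the valve side.

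For genes with every probe set called, the direction did not rest on the choice of probe set. Golm1, a Golgi membrane protein, had 1929.9, 3289 and 3396 in the valve and 128, 253 and 231 in the aorta on the brighter of 2 (3.83 ± 0.32, adjusted p = 4.3e-05). Tm4sf1, a membrane protein of endothelium, had 5399.5, 12231 and 17900 in the valve and 719, 1689 and 998 in the aorta (3.31 ± 0.45), and Gpm6b, a myelin-related membrane glycoprotein, 1643, 4625 and 4331 in the valve and 440.0, 103 and 121 in the aorta (4.18 ± 0.53). In these, all valve arrays were above all aorta arrays. Hecw2, a ubiquitin ligase of endothelium, was also higher on both probe sets, at 3.10 ± 0.41 on the brighter. In the other direction, Lmna, the nuclear lamin A/C, had 1408, 1040.4 and 1022 in the valve and 4094, 3083 and 3726 in the aorta (-1.66 ± 0.24, adjusted p = 0.00069), and Ddx17, an RNA helicase, 333, 292 and 315 in the valve and 1053, 1384 and 1352 in the aorta (-2.0 ± 0.22, adjusted p = 0.00017). Usf1, a transcription factor of lipid metabolism, was at least 7.59-fold lower on the brighter. All these examples were chosen after their values were seen. Leaving out one adult array gave 47 to 80 genes with every probe set higher and 98 to 208 with every probe set lower.

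The adult difference was set beside that of the newborn, which shares no arrays with it. Newborn valve arrays, too, had a higher 3' to 5' beta-actin ratio (7.24 to 8.84) than aorta arrays and a higher Xist signal (by 9.29 in log2), so signs shared by both ages are not independent of these. Of the 8038 calls, 7467 had the same sign in the newborn means, 2875 of the higher and 4592 of the lower. The share of same signs over all probe sets was not counted, so these counts have no background beside them. The fit tests where the difference itself differed between ages, and 11 probe sets passed (0.0354%), 8 of them more positive in the adult. Igf2bp3, a fetal RNA-binding protein, had 2.48, 3.09 and 3.50 in the valve and 49.9, 64.7 and 113 in the aorta on its brightest probe set, and in the newborn 2198, 1173 and 1882 in the valve and 403, 489 and 451 in the aorta (1.92). The adult valve signals lay far under the absent control level, so the adult fall is at least 1.31-fold and the age difference a log2 of -2.31 or beyond, against a fitted -6.50 ± 0.55. The call held with any array left out, and the fitted value was -3.43 with the offset of 32. Its other two probe sets were dim in the adult, pointed to the aorta in the newborn (-0.83 and -0.54) and did not differ by age at the threshold. Pcp4, a calmodulin regulator, had 90.5, 58.6 and 129 in the valve and 39.6, 13.6 and 11.7 in the aorta, at least 1.61-fold higher in the adult valve, against -4.62 in the newborn. Its age difference was at least 5.31 in log2 (fitted 6.88 ± 0.90). Hs3st1, a heparan sulfate sulfotransferase, stood at 1.73 ± 0.26 in the adult against -1.05 in the newborn. Nnat, an imprinted membrane protein gene, and Fbln2, fibulin-2, stood at -4.89 and -2.27 in the newborn and at -0.40 ± 0.43 and 0.09 ± 0.22 in the adult. For Igfbp3 the call was on the dimmer of 2 probe sets, at 3.17 ± 0.42 against -0.96, and the brighter, at 3.02 ± 0.49 against -0.58, was not called (adjusted p = 0.11 in limma). For Agtr2, the type 2 angiotensin receptor gene, the call was also on the dimmer of 2 probe sets, at -4.31 in the newborn, with adult signals of 50.9, 37.3 and 61.4 in the valve and 82.2, 80.2 and 52.1 in the aorta, near the absent control level. The brighter probe set of Agtr2 stood at -2.39 in the newborn, and its age difference of 0.21 ± 1.28 was not called (adjusted p = 0.97 in limma). The calls of these 6 genes were each lost without any of several single arrays. All 6 were lost without any one of newborn aorta 1, 2 or 3 or newborn valve 1 or 3, which left 1 or 2 calls. Over every array left out in turn the count was 1 to 38, with 38 without adult aorta 1.

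**Figure D5:**
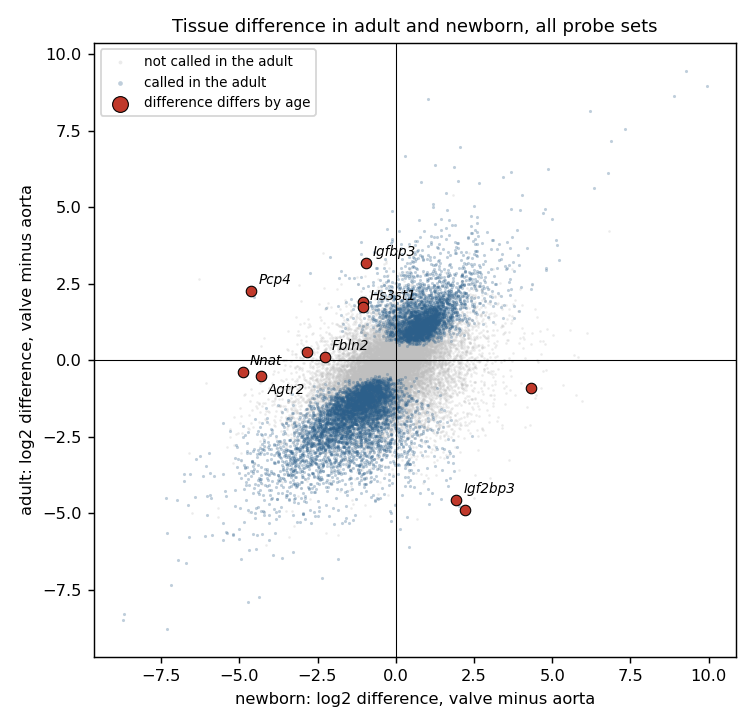
Log2 difference, valve minus aorta, of each of the 31042 probe sets in the adult (y axis) against the newborn (x axis); blue points were called in the adult and red points are the 11 probe sets whose difference differed between ages. Most blue points share their sign with the newborn, whereas Pcp4 and Igf2bp3 lie in the opposite quadrants.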

How the data were processed

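RNA of 12 rat samples was measured on one-colour oligonucleotide arrays. The deposited values are signal intensities on a linear scale that the authors made with MAS5 in Affymetrix Expression Console, per the submitters' processing notes. The values per array have a trimmed mean near 500.1, and no source used here names a version. Of 31099 probe sets, 57 controls were left out. Gene symbols came from the platform's annotation table: 20826 probe sets had 1 symbol (20758 found in the RefSeq gene table), 436 had several and 9780 none.

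Values under 1 were set to 1 and taken to log2, with no further scaling. limma 3.58.1 (R 4.3.3) fitted all 4 groups with a trend in the prior variance and 8 residual degrees of freedom, and p-values were adjusted by Benjamini-Hochberg over all 31042 probe sets with a threshold of 0.05. Errors are standard errors of the log2 difference. The number of arrays, 3 in each group, limits the precision. The procedure was tested on simulated data.

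Members, the 43 gene lists and the tests were chosen with earlier results of these data known. Named genes were the 15 largest differences each way that passed the threshold without overlap, with the mean of the brighter group at least 1 in log2 above the median and no opposite call on another probe set, leaving out Xist and Y-linked genes. Up to 4 members of each list with the smallest adjusted p were named too, and up to 6 genes each way for the difference between ages. Other genes are said to be chosen after their values were seen or fill out a family. Alternatives were a filter on dim probe sets, an offset of 32, median centring, quantile normalization, array weights, no trend, a replicate block, only the 6 adult arrays, groups by the tissue entry, the mean over a gene's probe sets and each array left out.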

Additional observations from a re-analysis of the deposited data

Results flagged for a closer look

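The tissue difference in the adult differed from that in the newborn, by the test of that difference in limma, for 7 named genes. Except for Igf2bp3, these calls were lost without any one of newborn aorta 1, 2 or 3 or newborn valve 1 or 3. Those settings left 1 or 2 probe sets called, and the replicate block left 1. Pcp4 differed by 6.88 ± 0.90 in log2, Nnat by 4.49 ± 0.61, Hs3st1 by 2.78 ± 0.36 and Fbln2 by 2.36 ± 0.31, all more positive in the adult. With adult aorta signals of Pcp4 under the absent control level, its difference is at least 5.31. Igfbp3 differed by 4.13 ± 0.60 and Agtr2 by 3.79 ± 0.47, both on the dimmer of 2 probe sets. The brighter ones, at 3.60 ± 0.70 and 0.21 ± 1.28, were not called. Igf2bp3 differed by a fitted -6.50 ± 0.55 on the brightest of 3 probe sets, more negative in the adult. Its adult valve signals lay under the absent control level, which bounds the difference at -2.31 or beyond, and its other two probe sets were not called. Groups of 3 arrays are too small for the test of a single array far from the others.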

How the results depend on the processing

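Calls between adult valve and adult aorta numbered 8038. They were 3342 with only the 6 adult arrays fitted and 1414 with groups taken from the conflicting tissue entry, and from 5959 to 8276 when one of the 6 adult arrays was left out. The dim probe set filter, the offset of 32, the centring, quantile, array weight, no trend and replicate block settings gave 6845 to 8585. Of the main calls, 73.5% were kept with median centring, 72.9% with quantile normalization (3 with reversed sign) and 41.1% with the 6 adult arrays. The difference between ages had 11 calls, 65 with array weights, 1 with the replicate block and 1 to 38 with one of the 12 arrays left out. Over 207 results of single genes and 2916 settings, 2543 stayed on their side of the threshold with the same direction, 373 lost the call and 0 reversed. List counts stayed within 1.5 times in 900 of 1290 settings. Whether the replicate numbers pair the samples is not known. Same-numbered valve and aorta arrays deviated from their group means with correlations of -0.116, -0.0413 and -0.0418, differently numbered ones with -0.0813 to 0.126. With deviations taken from means of so few arrays, these values cannot settle pairing. The replicate block gave 7564 calls (2974 higher and 4590 lower). Signals near 54.6 or under limit what dim probe sets can show: with the offset of 32, Ubl7 stood at -4.38 and Gria3 at 3.37.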
